A study of Mus musculus with 5 samples.

Results

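The genes described here build or maintain the primary cilium, or cause cystic kidney disease when mutated. They were chosen by gene symbol alone, as the Ift, Bbs and Nphp genes carrying a number plus a written set of further cilium and cyst genes such as Pkd1, Pkd2, Pkhd1, Arl3 and Ganab. The files listed 52 of them among 35478 genes. Their RNA was measured by RNA-seq in kidneys of 2 Prdm16 fl/fl mice, numbered 1 and 3 by the labels, and 3 Ksp-Cre/Prdm16 fl/fl mice, numbered 1 to 3, with 1 library per mouse. All 5 mice, of the strain given as C57BL/6J;129 in the strain label and as C57BL/6J in the sample titles, carried floxed Prdm16 alleles (exon 9 between loxP sites) and had unilateral ischemia-reperfusion injury (UIRI). The left renal pedicle was clamped for 35 minutes at 38.5 °C, the right kidney was removed on day 10, and the mice were killed 24 hours later, on day 11. The animals were male littermates aged 7 to 8 weeks. Ksp-Cre expresses Cre from the promoter of Ksp-cadherin, a cadherin of renal tubular epithelium, so that recombination is directed to tubule cells and leaves other kidney cells with the allele. No uninjured kidney was used here, and each comparison below is therefore between injured kidneys with and without Cre.

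The primary cilium is a single, nonmotile rod of microtubules that projects from the apical face of most renal tubule cells into the lumen. Intraflagellar transport (IFT) trains carry cargo along it: IFT-B and kinesin-2 move toward the tip, and IFT-A and dynein-2 move back to the base. The BBSome, a coat of Bardet-Biedl syndrome proteins, sorts membrane proteins in and out, and the transition zone at the base acts as the gate. The polycystins and fibrocystin reside in the ciliary membrane, and loss of either the polycystins or the machinery that builds the cilium gives renal cysts.

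Many ciliary genes share a promoter element, the X-box, which RFX transcription factors bind. RefSeq promoter windows (build GRCm38.p6, 250 bases before to 50 after each gene's start) were matched by symbol for 46 of the 52 genes and for 12849 other tested genes. An X-box, spelled as GTNNCC and GGNAAC with 2 further bases between them and searched on both strands, was present in 11 of the 46 genes (23.9%) and in 226 of the other genes (1.76%). Over all 32851 windows of that length the share was 1.29%. The shorter spelling GTTGCC, which some whole X-boxes contain, was found in 19 of 46 (41.3%) against 14.4% of the other genes. The window GC content was alike, with a median of 60.2% against 59.3%. Of the 10 spellings searched, 9 had a larger share among the cilium and cyst genes, and the exception was the forkhead spelling TTGTTTAC, with 0 of 46 against 1.05%. The rest were other spellings of the X-box or of part of it, with bases fixed, freed or spaced differently. Each was found in 1 to 4 of the 46 genes. The matches are letters in a window and were not tested as binding sites.

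The 11 genes were Ahi1, Bbs1, Bbs4, Bbs7, Ift22, Ift57, Mks1, Nphp4, Tmem216, Tmem231 and Tmem237. The stretches of 7 of them are printed because their X-box also contains GTTGCC on one strand or the other, and those of Ift22 because it alone had a pair of X-boxes. Each is written 5′ to 3′ with the X-box in capitals, on the strand of its gene.
Ahi1 (chr10:20952560-20952589): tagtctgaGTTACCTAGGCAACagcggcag
Bbs1 (chr19:4906605-4906634): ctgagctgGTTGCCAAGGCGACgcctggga
Bbs7 (chr3:36613489-36613518): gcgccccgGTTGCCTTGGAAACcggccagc
Ift57 (chr16:49699199-49699228): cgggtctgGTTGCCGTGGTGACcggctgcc
Mks1 (chr11:87853183-87853212): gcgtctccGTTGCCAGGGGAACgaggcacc
Tmem231 (chr8:111933781-111933810): cgccgtcgGTTGCCGTGGAGACtcggcgct
Tmem237 (chr1:59120102-59120131): tagtcagcGTTGCCATGGCGACgcctccgg
Ift22, first site (chr5:136908079-136908108): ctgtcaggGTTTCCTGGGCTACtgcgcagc
Ift22, second site (chr5:136908109-136908138): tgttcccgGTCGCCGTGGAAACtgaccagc
Genes of the + strand here are Ahi1, Ift57, Mks1 and Ift22, and those of the - strand are Bbs1, Bbs7, Tmem231 and Tmem237. The sites of Ahi1, Bbs1 and Tmem231 lie just after the start of the gene and the others lie upstream of it.

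**Figure D1:**
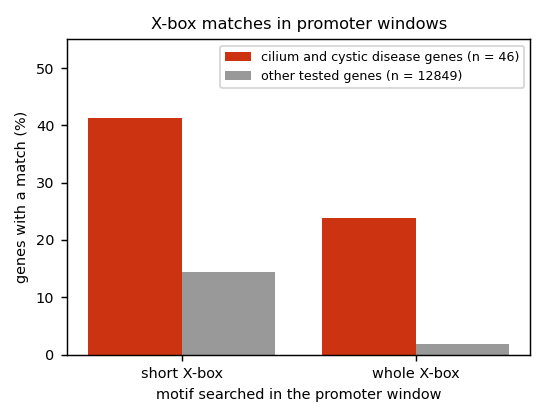
Share of genes (y axis, %) whose RefSeq promoter window holds the shorter spelling or the whole X-box, for 46 cilium and cystic disease genes (red) and 12849 other tested genes (grey). The whole X-box was found in 23.9% of the former and 1.76% of the latter.

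The libraries held 14939040 to 16425161 counted reads, and 16394 genes had enough counts to be tested, among them all 52 cilium and cyst genes. Prdm16 itself, the targeted gene, stood at 25.3 and 20.0 CPM (counts relative to the library size after TMM scaling) in Prdm16 fl/fl mice 1 and 3. It stood at 17.1, 17.0 and 18.0 CPM in Ksp-Cre/Prdm16 fl/fl mice 1, 2 and 3. All 3 Cre-carrying mice were thus below both controls, by a log2 fold change of -0.38 ± 0.15 (SE; edgeR quasi-likelihood test, Benjamini-Hochberg adjusted p = 0.259). The value was -0.21 without Prdm16 fl/fl mouse 1 and -0.54 without Prdm16 fl/fl mouse 3. These counts cover the whole gene, not exon 9 alone. Ksp-Cre/Prdm16 fl/fl mouse 3 stood apart, at 79.6 on a first principal component (57% of the variance) on which the other mice lay between -37.9 and -3.9. Values that move with it are given without it as well. Below, the Prdm16 fl/fl mice are called controls, and mice 1, 2 and 3 with no genotype named are the Ksp-Cre/Prdm16 fl/fl mice.

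Markers of tubule segments differed between the kidneys. The 8 proximal tubule markers summed to 6900 and 6660 CPM in the Prdm16 fl/fl mice and to 2620, 2890 and 1480 CPM in the Ksp-Cre/Prdm16 fl/fl mice, with all 8 fitted below 0 and 1 of them, Slc22a8, lower at an adjusted p under 0.05 (edgeR). Thick ascending limb markers (4) summed to 2720 and 3730 CPM against 2540, 2290 and 1230, distal convoluted tubule markers (4) to 1900 and 1170 against 1100, 710.0 and 327, and collecting duct markers (8) to 931 and 725 against 691, 458 and 455. Each defining marker of these segments was detected except Pvalb of the distal convoluted tubule, which was at 0 in Ksp-Cre/Prdm16 fl/fl mouse 3. Tubular injury markers (6) summed to 13200 and 14300 CPM against 28600, 29900 and 35600. In bulk tissue, fewer cells of a type and less RNA per cell cannot be told apart. The part of these markers in the values below was not tested.

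All 52 genes were expressed in the injured kidney. The lowest count of any of them in any mouse was 51 and the highest 4330. By TPM, which corrects for gene length and so allows levels to be compared between genes, 6 exceeded 50 TPM, 35 reached 10 TPM and 7 were under 5 TPM on average over the 5 mice. Ganab was at 141 TPM, Arl3 at 101 TPM, Ift43 at 84.7 TPM, Dnajb11 at 83.2 TPM, Ift20 at 62.4 TPM and Ift52 at 54.4 TPM. Among the membrane proteins of cystic disease, Pkd2 was at 44.0 TPM, Pkhd1 at 28.6 TPM and Pkd1 at 7.95 TPM. Bbs12 (2.49 TPM), Cep290 (1.58 TPM) and Nphp4 (1.01 TPM) formed the lower end. Neighbours in this order were not all separate, and the ranges of Arl3, Ift43 and Dnajb11 overlapped one another. Arl3 reached 126 TPM in Prdm16 fl/fl mouse 3, where Ganab was at 130 TPM. Ganab was above Arl3 in each of the 5 mice.

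**Figure D2:**
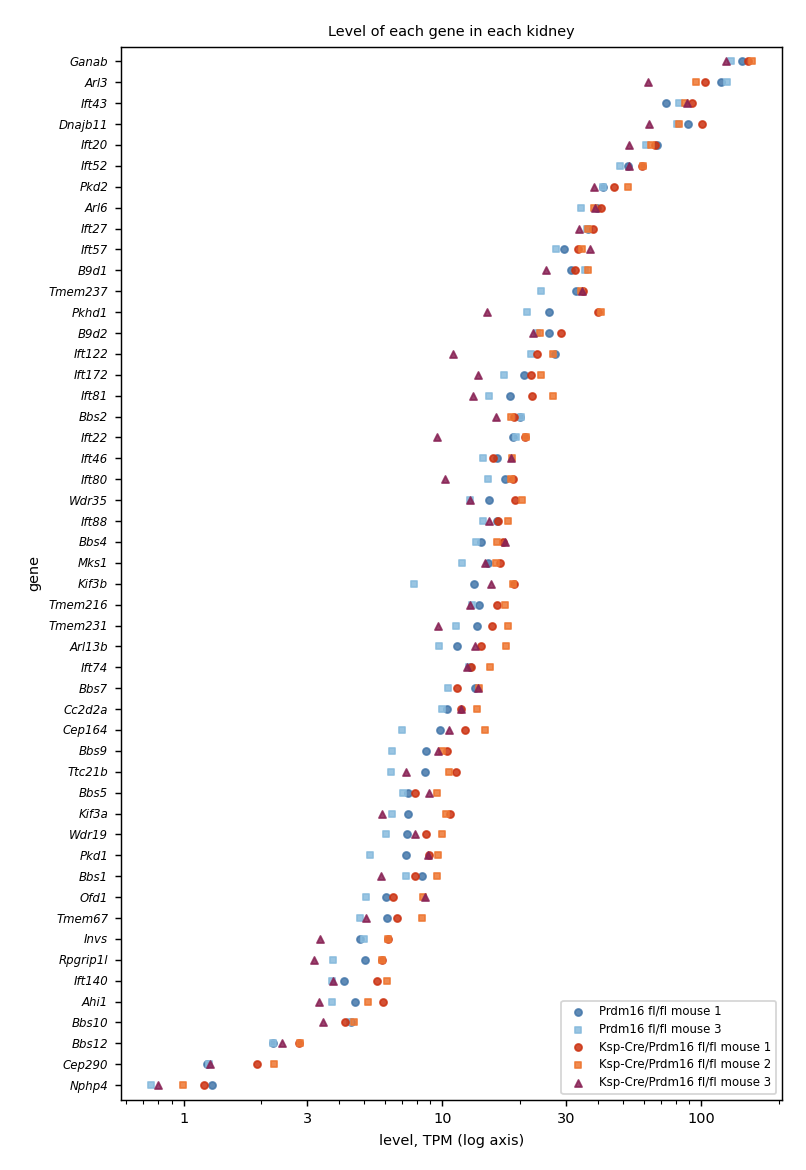
Level of 50 of the 52 genes in each kidney (x axis, TPM on a log scale; genes ordered by their mean over the 5 mice). Levels ran from 141 TPM for Ganab to 1.01 TPM for Nphp4, and the triangle of Ksp-Cre/Prdm16 fl/fl mouse 3 lies to the left of the other marks for Pkhd1, Ift122 and Ift22. TPM is scaled to an equal total in each library, whereas the comparison of genotypes uses TMM-scaled counts.

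The comparison of genotypes asked whether tubular deletion of Prdm16 altered these genes after UIRI. None of the 52 passed an adjusted p of 0.05 in the edgeR quasi-likelihood test, against 160 of the 16394 tested genes (0.976%; 0.104% higher and 0.872% lower) and 1.14% of the genes of like level. Unadjusted p was under 0.05 for 4 of them (background 18.8%, or 20.3% among genes of like level): Arl3, Bbs2 and Ift20 were lower (background 11.2%) and Kif3b was higher (background 7.64%). DESeq2 called 1 at an adjusted p of 0.05 (background 7.54%), Arl3, which was lower (background 5.56%), and 0 higher (background 1.98%). Its unadjusted p was under 0.05 for 3 (background 18.0%), 1 higher (background 7.46%) and 2 lower (background 10.6%). The design of 2 against 3 mice has 10 splits, so an exact permutation test of a single gene cannot go below a one-sided p of 0.1, and the p-values given here come from edgeR or, where named, DESeq2 models fitted over all genes. They set the difference between the groups against the spread between these animals, as those models estimate it.

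The log2 fold changes of Ksp-Cre/Prdm16 fl/fl over Prdm16 fl/fl ran from -0.75 to 0.52, with a median of -0.046, while those of all tested genes ran from -4.34 to 5.35 with a median of 0.038. Their median size regardless of sign was 0.153, compared with 0.258 over all tested genes and 0.225 over the 11977 genes in the same range of mean log2 CPM. The 95% interval lay within -1 and 1, that is, within a doubling in either direction, for 47 of the 52 (90.4%), against 61.2% of all tested genes and 76.6% of those of like level. The 5 whose intervals reached beyond -1 or 1 were Arl3, Ift22, Ift122, Kif3b and Pkhd1. A change of 1.5-fold (0.58 on the log2 scale) lay outside the interval for 22 genes (42.3%, background 29.0%), and for the other 30 it did not. The intervals assume that 2 and 3 mice represent their genotypes.

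The mice of the groups did not overlap for 21 of the 52 genes (40.4%), which is near the 41.6% of all tested genes and the 43.7% of those of like level. The split was 16 lower (background 21.3%) and 5 higher (background 20.3%) in the Ksp-Cre/Prdm16 fl/fl mice. This split depended on scaling, because library size alone, without TMM, gave 5 lower and 10 higher. The share of all tested genes that separated with library size alone was not counted. That scaling moved the median of all tested genes from 0.038 to 0.149 and that of the cilium and cyst genes from -0.046 to 0.072. The median of the cilium and cyst genes minus that of all tested genes was -0.084 with TMM and -0.077 with library size alone. It depended on single mice, at -0.04 without Ksp-Cre/Prdm16 fl/fl mouse 3, -0.052 without Prdm16 fl/fl mouse 1 and -0.12 without Ksp-Cre/Prdm16 fl/fl mouse 2.

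**Figure D3:**
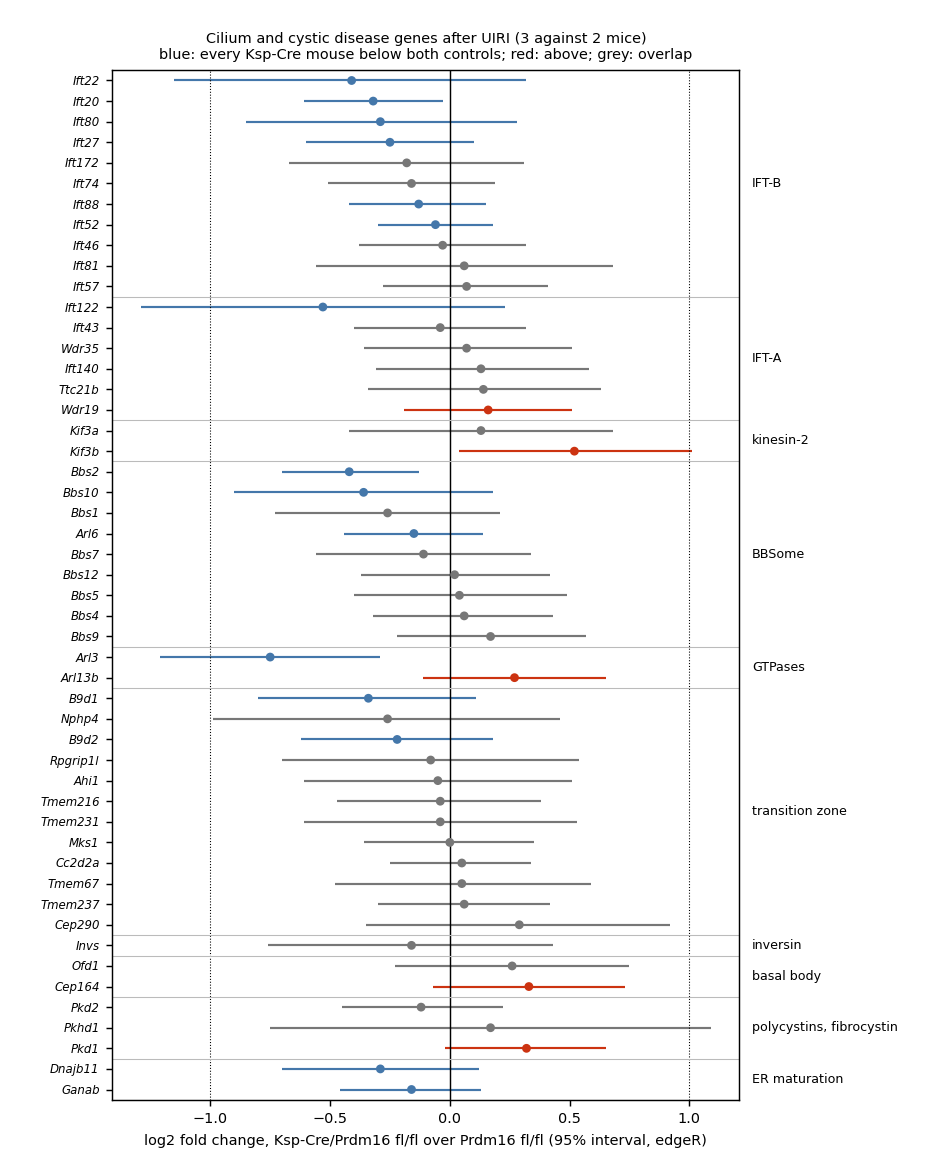
Log2 fold change (x axis) of 50 of the 52 genes in 3 Ksp-Cre/Prdm16 fl/fl against 2 Prdm16 fl/fl mice, with its 95% interval from edgeR, grouped by role. Blue marks the 15 genes for which every Ksp-Cre/Prdm16 fl/fl mouse was below both controls, red the 5 for which every one was above, and grey overlap. The dotted lines stand at -1 and 1, and 45 of the 50 intervals drawn lie between them.

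The 11 IFT-B genes had a median log2 fold change of -0.16 (range -0.41 to 0.07). None passed the adjusted threshold, and for 6 of the 11 every Ksp-Cre/Prdm16 fl/fl mouse was below both controls (background 21.3%); with library size scaling the median was -0.05 and that number was 2. Ift20, which also serves vesicle traffic from the Golgi to the cilium, was at 33.4 and 33.6 CPM in the controls and at 28.2, 27.1 and 25.1 CPM in the Ksp-Cre/Prdm16 fl/fl mice. The groups did not overlap, and the log2 fold change was -0.32 ± 0.12 (SE; edgeR adjusted p = 0.225). With a gene-length trend removed it was -0.10. Ift27, a small GTPase of the train, was at 15.8 and 17.2 CPM against 14.1, 13.5 and 14.0 CPM. Its groups were also separate, with a log2 fold change of -0.25 ± 0.14 (SE; edgeR adjusted p = 0.404), or 0.02 with that trend removed. Ift88, the core subunit whose hypomorphic allele gives polycystic kidneys in mice, was at 30.7 and 29.6 CPM against 26.3, 28.8 and 27.4 CPM. Its log2 fold change was -0.13 with a 95% interval of -0.42 to 0.15, which leaves out a 1.5-fold change in either direction. Among the other members of IFT-B, Ift22, Ift52 and Ift80 were also below both controls in every Ksp-Cre/Prdm16 fl/fl mouse, whereas Ift46, Ift57, Ift74, Ift81 and Ift172 overlapped. About 32.3% of the exon bases of Ift57 are shared with the antisense gene Gm15518, and its count is uncertain to that extent.

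The 6 IFT-A genes gave a median log2 fold change of 0.10 (range -0.53 to 0.16), and none passed. Wdr19, a core subunit of IFT-A, was at 18.7 and 17.3 CPM in the controls. The Ksp-Cre/Prdm16 fl/fl mice had 19.1, 22.0 and 19.4 CPM, all above both controls, with a log2 fold change of 0.16 ± 0.14 (SE; edgeR adjusted p = 0.581), or 0.10 without control mouse 3 or mouse 2. Ift122, another core subunit, was at 54.9 and 49.0 CPM against 40.0, 46.3 and 21.3 CPM. The estimate moved with mouse 3 and was -0.53 with all mice and -0.27 without it (adjusted p = 0.411 and 0.141, edgeR). Ift43, Ift140, Ttc21b and Wdr35 overlapped between genotypes, with log2 fold changes from -0.04 to 0.14.

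Kinesin-2, the motor that drives anterograde trains, was represented by both of its motor subunits. Kif3b was at 42.1 and 27.2 CPM in the controls and at 51.6, 51.0 and 47.0 CPM in the Ksp-Cre/Prdm16 fl/fl mice. Every Ksp-Cre/Prdm16 fl/fl mouse was higher, but the controls were spread from 27.2 to 42.1 CPM. The log2 fold change of 0.52 ± 0.20 (SE; edgeR adjusted p = 0.236) went from 0.24 to 0.87 when single mice were left out. Kif3a was at 31.6 and 30.2 CPM against 39.2, 38.0 and 24.1 CPM. Its groups overlapped because mouse 3 was the lowest of the 5 and mice 1 and 2 the highest, and the log2 fold change was 0.13 ± 0.23 (SE; edgeR adjusted p = 0.797). Without mouse 3 it was 0.32 (adjusted p = 0.0635).

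The 9 genes of the BBSome and its partners had a median log2 fold change of -0.11 (range -0.42 to 0.17), which became -0.01 with library size scaling, and none passed the adjusted threshold. Bbs2, a core subunit needed to start BBSome assembly, was at 32.6 and 36.2 CPM in the controls and at 26.5, 25.9 and 25.1 CPM in the Ksp-Cre/Prdm16 fl/fl mice. The values with Cre lay close together and all below both controls, with a log2 fold change of -0.42 ± 0.12 (SE; 95% interval -0.70 to -0.13; edgeR adjusted p = 0.149). Without mouse 3 it was lower at an adjusted p of 0.043, and over the alternatives the adjusted p ran from 0.043 to 0.72. Arl6, the GTPase that recruits the BBSome to membranes, and Bbs10, which encodes a chaperonin-like assembly factor, were below both controls in every Ksp-Cre/Prdm16 fl/fl mouse too. Arl6 was at 33.7 and 32.4 CPM against 29.7, 28.2 and 31.6 CPM. Bbs1, Bbs4, Bbs5, Bbs7, Bbs9 and Bbs12 overlapped.

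Arl3 showed the widest difference among the 52 genes. This small GTPase releases lipid-modified cargo inside the cilium and is activated there by Arl13b. It was at 51.4 and 59.6 CPM in the controls and at 38.1, 35.1 and 25.8 CPM in the Ksp-Cre/Prdm16 fl/fl mice, so that the highest of the latter was well under the lower control. Group means were 55.5 ± 5.79 CPM (SD, n = 2) and 33.0 ± 6.44 CPM (SD, n = 3). The log2 fold change was -0.75 ± 0.19 (SE; 95% interval -1.21 to -0.29), with an adjusted p of 0.118 in edgeR. DESeq2 gave an adjusted p of 0.031, and edgeR without mouse 3 gave -0.59 with an adjusted p of 0.00946. Over all alternatives the log2 fold change ran from -0.86 to -0.48 and the adjusted p from 0.00946 to 0.653. Arl13b was at 19.5 and 18.3 CPM against 20.6, 25.8 and 21.9 CPM. Although all 3 values were above both controls, the log2 fold change of 0.27 ± 0.15 (SE; edgeR adjusted p = 0.403) did not pass, and it was 0.17 without mouse 2.

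**Figure D4:**
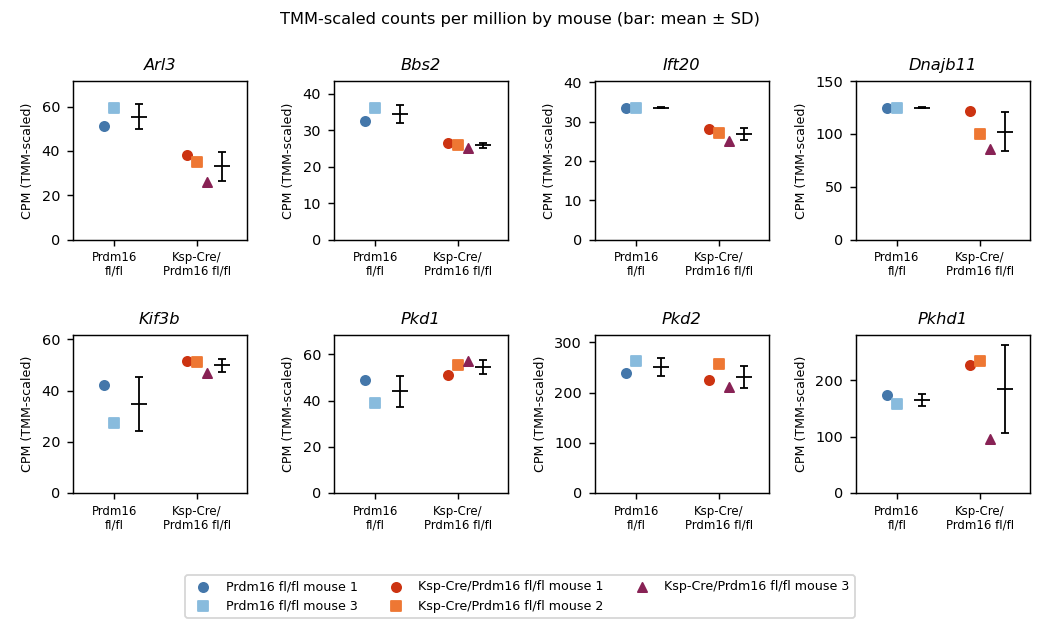
TMM-scaled CPM (y axis, from 0) of 8 genes in each mouse, with the mean and SD of each genotype beside the points. The 3 Ksp-Cre/Prdm16 fl/fl mice are below both controls for Arl3, Bbs2, Ift20 and Dnajb11, above both for Kif3b and Pkd1, and on either side of them for Pkhd1, where mouse 3 is the lowest.

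The 13 transition zone genes were centred on a log2 fold change of -0.04 (range -0.34 to 0.29), or on 0.07 with library size scaling. With all mice none had an edgeR unadjusted p under 0.05 (background 18.8%). Without mouse 3 only Cep290 did, and it was higher (background 16.5%). B9d1, of the B9 complex that forms the membrane gate, was at 15.3 and 19.2 CPM against 13.6, 15.3 and 11.8 CPM. All Ksp-Cre/Prdm16 fl/fl values lay under both controls, the highest of them only narrowly, and the log2 fold change was -0.34 ± 0.19 (SE; edgeR adjusted p = 0.382). It was -0.17 without control mouse 3 and -0.11 with the gene-length trend removed. Of its 1118 exon bases, 179 are shared with the antisense gene B9d1os. Cep290, which links the ciliary membrane to the microtubules, was at 5.93 and 6.67 CPM against 7.95, 9.21 and 5.86 CPM. These overlapped (log2 fold change 0.29, 95% interval -0.35 to 0.92). The log2 fold change was 0.45 without mouse 3 and 0.13 without mouse 2, and 20.4% of its exon bases are shared with the antisense gene 4930430F08Rik. B9d2 was below both controls in every Ksp-Cre/Prdm16 fl/fl mouse, and 10 genes of the gate, Ahi1, Cc2d2a, Cep290, Mks1, Nphp4, Rpgrip1l, Tmem67, Tmem216, Tmem231 and Tmem237, overlapped. Nphp4 lies 1.75 Mb from Prdm16 on chromosome 4, and was at 5.73 and 3.66 CPM against 4.54, 3.78 and 3.40 CPM.

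Next to the gate, the inversin compartment of the proximal cilium includes Invs, which encodes inversin and overlapped between genotypes with a log2 fold change of -0.16. At the basal body, Cep164, which marks the distal appendages that dock the mother centriole to the membrane, was at 34.4 and 27.2 CPM against 36.8, 44.1 and 35.6 CPM. All 3 were above both controls, with a log2 fold change of 0.33 ± 0.16 (SE; edgeR adjusted p = 0.338), or 0.17 without control mouse 3. Ofd1, a centriolar satellite protein, was at 18.0 and 16.6 CPM against 16.4, 21.3 and 24.5 CPM, and overlapped.

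Of the membrane proteins whose loss gives polycystic kidneys, Pkd1, which encodes polycystin-1, was at 48.8 and 39.1 CPM in the controls. The Ksp-Cre/Prdm16 fl/fl mice had 51.3, 55.6 and 57.2 CPM, all higher. The log2 fold change was 0.32 ± 0.14 (SE; 95% interval -0.02 to 0.65; edgeR adjusted p = 0.29), and without control mouse 3 it was 0.16. Pkd1 shares 4.5% of its exon bases with Tsc2. Pkd2, which encodes the channel subunit polycystin-2, was at 239 and 263 CPM against 225, 256 and 212 CPM. These overlapped, with a log2 fold change of -0.12 and an interval of -0.45 to 0.22. Pkhd1, which encodes fibrocystin and is mutated in recessive polycystic kidney disease, was at 173 and 157 CPM against 227, 234 and 95.5 CPM. Mice 1 and 2 were above both controls and mouse 3 was below both. With all mice the log2 fold change was 0.17 ± 0.38 (SE; edgeR adjusted p = 0.839). Without mouse 3 it was 0.49 and Pkhd1 was higher at an adjusted p of 0.0141, and without mouse 2 it was -0.03.

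The ER proteins that fold and trim polycystin-1 were among the most abundant. Ganab, the catalytic subunit of glucosidase II, was at 261 and 261 CPM in the controls and at 236, 245 and 218 CPM in the Ksp-Cre/Prdm16 fl/fl mice. Dnajb11, a cochaperone of BiP, was at 125 and 125 CPM against 122, 99.5 and 85.4 CPM. Both were below both controls in every Ksp-Cre/Prdm16 fl/fl mouse, although Dnajb11 only just so in mouse 1. Their log2 fold changes were -0.16 (95% interval -0.46 to 0.13) for Ganab and -0.29 (95% interval -0.70 to 0.12) for Dnajb11, and neither passed. That of Dnajb11 was -0.17 without mouse 3. With library size scaling neither was separate between the groups.

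Much of the spread lay among the Ksp-Cre/Prdm16 fl/fl mice. The median log2 difference of the 52 genes from the control mean was -0.041 in mouse 1, 0.002 in mouse 2 and -0.198 in mouse 3, while over all tested genes it was 0.001 in mouse 3. Mouse 3 was the lowest of the 5 mice for 29 of the 52 genes (55.8%) and for 32.0% of all tested genes, and the highest for 9 (17.3%) against 32.0%. Relative to the mean of mice 1 and 2, it was lower by at least 0.5 on the log2 scale for 13 of the 52 genes. It was higher by as much for 1 of them. Over the 16394 tested genes it was lower by as much for 3259 and higher for 2536. Of the 52, the farthest below were Pkhd1 (-1.27), Ift122 (-1.01), Ift22 (-0.96), Ift81 (-0.73), Rpgrip1l (-0.71), Ift80 (-0.70) and Invs (-0.70). Differences of 0.5 or more in either direction made up 26.9% of the 52 and 35.3% of all tested genes. Tubule segment markers summed lowest in the same mouse for each of the 4 segments, for example 1480 CPM for the proximal tubule, and their part in its cilium gene levels was not tested.

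**Figure D5:**
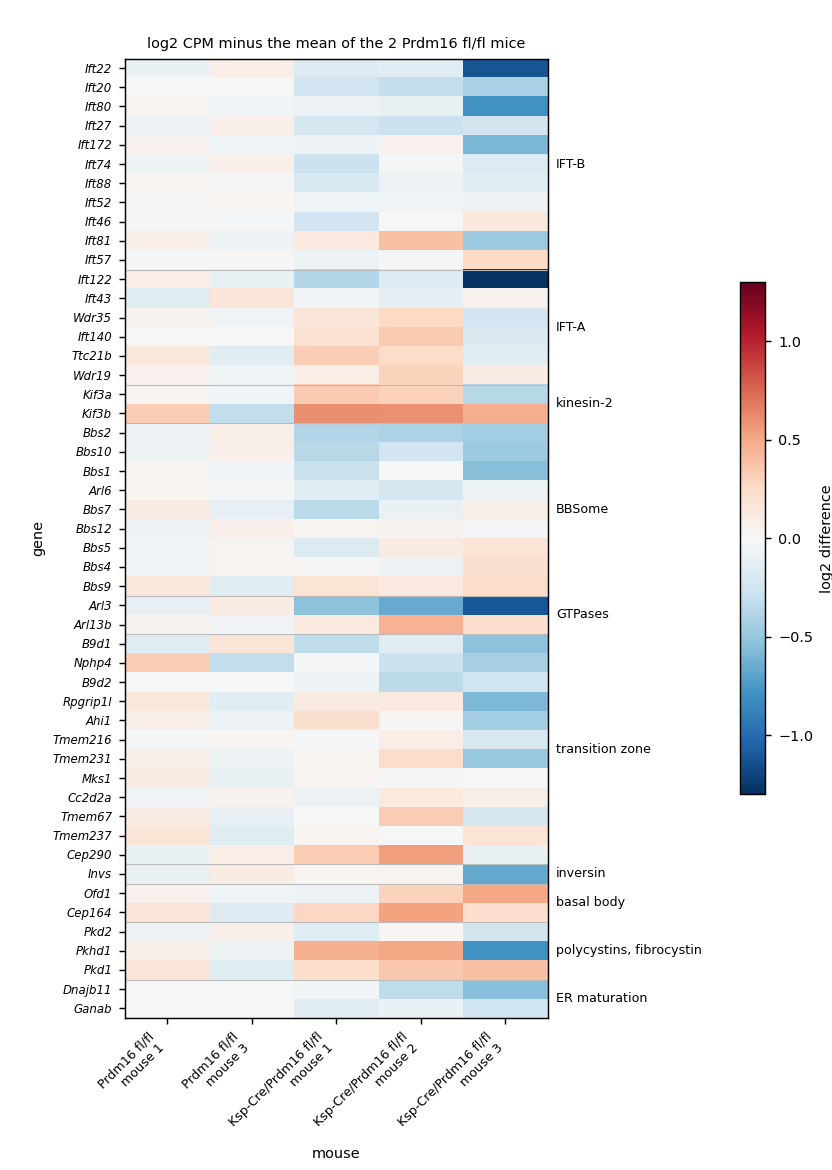
Log2 CPM of 50 of the 52 genes in each mouse minus the mean of the 2 Prdm16 fl/fl mice (red above, blue below), grouped by role. The column of Ksp-Cre/Prdm16 fl/fl mouse 3 is the bluest, with a median over the 52 genes of -0.198, against -0.041 and 0.002 in mice 1 and 2.

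Without mouse 3 the edgeR test called 3 of the 52 genes (background 18.9%), Arl3 and Bbs2 lower (background 11.0%) and Pkhd1 higher (background 7.82%). Unadjusted p was then under 0.05 for 11 (background 34.2%), 6 higher (background 16.5%) and 5 lower (background 17.7%). The share called was below that of all tested genes in this setting too. With all 5 mice, the 11 genes with an X-box had log2 fold changes from -0.41 to 0.07 with a median of -0.04. None of them then had an unadjusted p under 0.05 in edgeR (background 18.8%).

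Other cilium and cyst genes, outside the 52, were read from written lists. With all mice, no gene in them passed an adjusted p of 0.05 in edgeR. Of 7 dynein-2 motor genes, Dynlrb1, a light chain shared with cytoplasmic dynein, had an unadjusted p under 0.05, at 103 and 127 CPM against 87.3, 80.5 and 88.2 CPM (log2 fold change -0.43, edgeR adjusted p = 0.162). The next was Tctex1d2 (-0.12). Of 12 further IFT and BBSome genes, Bbip1, the smallest BBSome subunit, was lower before adjustment (-0.36, adjusted p = 0.21) and Lztfl1, a regulator of BBSome traffic, came next (-0.29). Of 24 further transition zone and basal body genes, Ccp110, which caps centrioles, was higher before adjustment (0.35, adjusted p = 0.215) and Odf2, of the subdistal appendages, came next, at 62.1 and 53.7 CPM against 63.9, 67.2 and 108 CPM (0.46, or 0.18 without mouse 3).

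Hedgehog signalling passes through the cilium, and its 14 tested genes had a median log2 fold change of 0.28. For 5 of them every Ksp-Cre/Prdm16 fl/fl mouse was above both controls (background 20.3%) and for 0 below, while 3 had an unadjusted p under 0.05, all higher (background 7.64%). Cdon, a coreceptor for Hedgehog ligands, was at 13.6 and 12.8 CPM against 20.9, 22.9 and 21.7 CPM. The groups lay far apart, with a log2 fold change of 0.73 ± 0.14 (SE; edgeR adjusted p = 0.0685), and DESeq2 gave an adjusted p of 0.00512. The ligand Ihh was at 30.3 and 23.5 CPM against 38.7, 34.1 and 41.4 CPM (log2 fold change 0.50, edgeR adjusted p = 0.187). Fibroblast and pericyte markers (5) summed to 339 and 532 CPM against 848, 828 and 574 in the same mice, and their part in these values was not tested.

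Of a written list of RFX factors, Foxj1 and related regulators, 8 genes were tested. With all mice none had an edgeR unadjusted p under 0.05 (background 18.8%). The smallest p-values belonged to Rfx3, at 14.7 and 13.8 CPM against 11.8, 13.1 and 10.5 CPM (log2 fold change -0.27, edgeR adjusted p = 0.432), and to Rfx5 (0.33, adjusted p = 0.473). Foxj1, the master regulator of motile cilia, was at 5.39 and 5.88 CPM against 9.71, 9.39 and 2.27 CPM. Mice 1 and 2 were above both controls and mouse 3 below both, so that its log2 fold change was 0.34 (adjusted p = 0.792) with all mice and 0.76 (adjusted p = 0.02) without mouse 3. Renal cilia are immotile, and 13 genes of the motile axoneme were nevertheless high enough to be tested. The lowest p among them belonged to Zmynd10, an assembly factor of dynein arms, at 16.2 and 12.8 CPM against 6.24, 7.44 and 5.06 CPM. Its log2 fold change was -1.21 ± 0.23 (SE; edgeR adjusted p = 0.0696, DESeq2 adjusted p = 0.00105). Cfap126 followed at 7.21 and 9.11 CPM against 4.83, 3.43 and 2.20 CPM (-1.22, edgeR adjusted p = 0.152, DESeq2 adjusted p = 0.0412). The median of the 13 genes was 0.12. Without mouse 3, edgeR called Zmynd10 and Cfap126 lower (background 11.0%) and Dnah5, an outer arm dynein heavy chain, higher (background 7.82%). Dnah5 was at 3.51 and 2.73 CPM against 5.68, 6.2 and 0.933 CPM.

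Among 20 other genes of cystic kidney disease, 3 had an unadjusted p under 0.05, all higher (background 7.64%), and the median log2 fold change was 0.07. Muc1, the mucin of the tubular apical membrane, was at 40.5 and 41.3 CPM against 60.5, 51.7 and 67.6 CPM (log2 fold change 0.55, edgeR adjusted p = 0.124). Lrp5, a Wnt coreceptor, was at 35.0 and 30.8 CPM against 43.8, 44.4 and 57.2 CPM (0.56, adjusted p = 0.156). For both genes every value with Cre was above both controls. Without mouse 3, where 7.82% of all tested genes were called higher, edgeR called 4 of these 20 genes higher (Muc1, Lrp5, Bicc1 and Glis3) and, of the 14 Hedgehog genes, 1, Cdon. Of the other lists it then called Dynlrb1 and Nek8, a kinase of the inversin compartment, lower (background 11.0%).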

How the data were processed

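Kidney RNA (kidney cortex, per the study's methods) of 2 Prdm16 fl/fl and 3 Ksp-Cre/Prdm16 fl/fl mice was analysed, 1 library per mouse, grouped by the labelled genotype. The libraries were made with a NEBNext Ultra kit, and strand use in counting is not given in the sources used here, so overlapping genes are uncertain. The authors deposited raw counts per gene, and also TPM and FPKM, both of which were recomputed from the deposited counts and differed by rounding only. The submitters' processing notes name CASAVA, featureCounts 2.0.1, DESeq2 1.16.1 and hg38, with no role given. The files hold mouse genes, and their coordinates are not those of GRCm38. The deposited lines of 5 long genes, broken over several lines, were rejoined.

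Counts were tested over all genes with the edgeR 4.0.16 quasi-likelihood test (R 4.3.3, filterByExpr, TMM), with Benjamini-Hochberg adjustment and a threshold of 0.05. Alternatives used DESeq2 1.42.0 (tested genes 15694), other scalings, other count filters, limma 3.58.1 on log2(FPKM + 1) and log2(FPKM + 0.1) with FPKM of at least 1 in 2 libraries, removal of a gene-length trend (loess, span 0.3), a block for mouse number, and leaving out each mouse. Where 1 control remained, it was assumed to vary like the other group. Scripts were tested on simulated data. The genes and lists were chosen with earlier results of these data known. Values by mouse are given for a written set with 1 or more genes of each role and for the 6 genes with the smallest p in each direction. Of the other lists, the 2 genes with the smallest p are named. Beside these, Ift122, Arl6, Nphp4, Foxj1, Dnah5, Nek8, Bicc1 and Glis3 are given after their values were seen. The values of 2 of the 52 genes are not reported here, and counts and medians over the set include them. Samples with the same number did not deviate together (r = -0.00335 for mice 1 and -0.0218 for mice 3), and the most similar libraries still differed beyond sampling noise (chi-square per degree of freedom 10.3, over genes with 30 or more counts in the pair). Leukocyte markers (6) had a median log2 fold change of -0.01, endothelial markers (5) -0.13, podocyte markers (4) -0.74 with Nphs1 called lower, fibroblast and pericyte markers (5) 0.63 and injury markers (6) 1.18.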

Additional observations from a re-analysis of the deposited data

How the results depend on the processing

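Over 15 alternatives, 260 of 268 values for the 18 genes named by rule and reported here kept their direction and their side of the threshold. None of the 18 was called by edgeR with all mice, so keeping the side meant staying uncalled. With mouse number as a block, or without Ksp-Cre/Prdm16 fl/fl mouse 1 or 2, 0 of all tested genes were called. The side was thus fixed in those alternatives. The 260 values also include the fits without 1 of the Prdm16 fl/fl mice. These left 1 control, and staying uncalled there carries no weight. DESeq2 called 1 gene lower, Arl3. With library size scaling, 2 genes were higher and 1 lower at an unadjusted p under 0.05, the median was 0.072, and groups were separate for 10 genes higher and 5 lower. Upper quartile scaling gave 2 higher at an unadjusted p under 0.05. On log2(FPKM + 1) and log2(FPKM + 0.1), limma tested 50 of the 52 genes. Of these, it gave 1 lower at an unadjusted p under 0.05 in both. The medians of the 50 were 0.05 and 0.052, and 10 genes were separate higher and 5 lower in both. Removing the gene-length trend left 0 higher at an unadjusted p under 0.05 and put Ift27 at 0.02. Of the genes at an unadjusted p under 0.05 in the main fit, it put Ift20 at -0.10, Arl3 at -0.48, Bbs2 at -0.46 and Kif3b at 0.44. Leaving out single Ksp-Cre/Prdm16 fl/fl mice gave 0 to 1 genes called higher and 0 to 2 called lower. At an edgeR unadjusted p under 0.05 it gave 0 to 6 higher and 2 to 5 lower. Groups were then separate for 6 to 12 genes higher and 15 to 21 lower, but fewer mice separate more readily. The share of all tested genes that separated was not counted in the alternatives. Without Prdm16 fl/fl mouse 3, log2 fold changes were -0.64 for Arl3, -0.34 for Bbs2, -0.32 for Ift20 and 0.24 for Kif3b. Without Prdm16 fl/fl mouse 1 they were -0.85, -0.49, -0.33 and 0.87, in the same order. Each of these fits left 1 control, so its counts of genes under a threshold are not given. Leaving out any single mouse gave medians from -0.093 to -0.011, with Pkhd1 from -0.03, without Ksp-Cre/Prdm16 fl/fl mouse 2, to 0.49. The calls came from leaving out Ksp-Cre/Prdm16 fl/fl mouse 3, where 18.9% of all tested genes were called. With mouse number as a block, which pairs mice by a shared number only, 0 genes were called, the median was -0.111, Pkhd1 was at -0.16 and Kif3a at -0.0037. The causes were not tested. Every gene of the set had at least 51 counts in each of the 5 libraries, and its median SE was 0.18 on the log2 scale.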
